A study of Mus musculus with 12 samples.

Results

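The genes described here encode the nuclear subunits of the mitochondrial respiratory chain and of ATP synthase. They were chosen by symbol, as the protein-coding genes of the mouse GRCm38.p6 annotation whose symbols start with Nduf, Sdha, Sdhb, Sdhc, Sdhd, Uqcr, Cox4 to Cox8 or Atp5. The rule takes 100 of 21887 nuclear protein-coding genes: 49 for complex I, 8 for complex II, 8 for complex III, 18 for complex IV and 17 for complex V. Of these, 12 are assembly factors (Ndufaf and Sdhaf), and Ndufa4, which the prefix places with complex I, is now counted as a complex IV subunit. Acetylation was read within 2 kb of either end of each gene, where 119 of the 40909 regions in the authors' deposited table lie.

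The marks are acetylated lysines 9 and 14 of histone H3 (H3K9/14ac), measured by RELACS, a ChIP-seq protocol that barcodes the chromatin of each sample inside its nuclei. Both genotypes are T helper 17 (Th17) cells, made from naive T cells of C57BL/6 mice by 3 days of Th17-polarising culture. Restimulation lasted 3 h and used PMA, ionomycin, Bref A and Monensin. The KO group carries Slc2a3-fl/fl with Cd4-cre, which removes the glucose transporter gene Slc2a3 (GLUT3) in cells that express the Cd4-driven recombinase. The WT group is labelled wild type, and no floxed control without Cre is among the labels. Each genotype has 3 ChIP libraries, named by replicate number; all 6 were immunoprecipitated as 1 pool. Files of the 6 input samples were not analysed here. The labels do not say whether replicates came from separate animals or cultures, so p-values measure only the spread between these libraries.

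The respiratory chain passes electrons from NADH (complex I) and succinate (complex II) through complex III to oxygen at complex IV, and the proton gradient that this builds drives ATP synthesis at complex V. Most of its subunits are encoded in the nucleus, from CpG-rich promoters that are active in nearly all cell types. The remaining subunits are encoded on mitochondrial DNA, which carries no histones and is outside this measurement. NRF1, the GABP factor of the ETS family, YY1 and SP1 are transcription factors known to bind promoters of such genes.

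Depth differed between the genotypes. The deposited lists hold 39264, 40386 and 40582 peaks in the KO libraries, against 43507, 40997 and 42771 in the WT libraries. The mean fragment coverage recovered from these lists was 1.85, 2.29 and 1.92 in KO libraries, against 3.99, 3.48 and 2.97 in WT libraries (two-sided exact permutation test, p = 0.1, the smallest that 3 against 3 libraries allow). The part of this depth difference in the peak lengths given below was not tested. The authors' deposited table is on its own library scaling; at equal coverage every log2 fold change would be higher by 0.3. At the ends of the targeted gene Slc2a3, peaks covered 1449, 1402 and 1164 bp in KO libraries, against 2583, 2298 and 1991 bp in WT libraries, and its region had a log2 fold change of -1.8 in the authors' deposited table (FDR 8.24e-18). The labels do not give the deleted part, so this is no check of the deletion itself. All 5 Th17 markers had a peak in at least 1 library and 4 of them in every library (Il17f in 1 of 3 KO and 3 of 3 WT libraries), as did all 5 T cell markers in every library. The summed peak length of the Th17 markers was 11457 to 16351 bp in KO and 22087 to 23965 bp in WT libraries, and that of the T cell markers 14667 to 15397 bp in KO and 20114 to 20499 bp in WT libraries. Both sums were lower in every KO library than in any WT library, and their part in the values below was not tested. Of the other cell types' markers, 1 of 5 for B cells (Cd79a), 2 of 5 for myeloid cells, 1 of 4 for CD8 T and NK cells (Cd8b1) and 2 of 4 for erythroid cells had any peak. The summed peak length of these B cell markers was 2819 to 3295 bp in KO and 3541 to 4503 bp in WT libraries, with Cd79b, Ms4a1 and Pax5 at 0 in all 6. For myeloid markers it was 1282 to 1502 bp in KO and 1200 to 1364 bp in WT libraries, for CD8 T and NK markers 476 to 995 bp in KO and 1681 to 2317 bp in WT libraries, and for erythroid markers 0 to 465 bp in KO and 503 to 1626 bp in WT libraries. Fewer acetylated cells and less acetylation per cell cannot be told apart in these libraries.

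Nearly every respiratory chain gene carried a peak just after its transcription start. A start was listed for 82 of the 100 genes in the RefSeq promoter table used here. At 150 bp after the start, a peak lay over 93.9%, 93.9% and 95.1% of these starts in KO libraries, against 96.3%, 95.1% and 95.1% in WT libraries. Among the 17410 other protein-coding genes with a listed start, the share was 43.4% to 44.0% in KO and 46.8% to 47.0% in WT libraries. The 150 bp position is where the share at respiratory chain starts was highest in each library. At the start itself it was 70.7%, 72.0% and 75.6% in KO libraries, against 82.9%, 81.7% and 80.5% in WT libraries. For the other genes it was 35.0% to 36.1% there in KO and 40.8% to 40.9% in WT libraries. At the strongest end peak of each gene, the authors' fold enrichment had a median of 9.39, 10.1 and 9.77 in KO lists, against 8.59, 9.59 and 9.98 in WT lists. Read in the same way, other protein-coding genes with an end peak had medians of 8.85, 8.66 and 8.86 in KO lists, against 8.45, 8.94 and 9.23 in WT lists. Ranked within its own list, the median respiratory chain gene stood between the percentiles 82.5 and 86.3 over the 6 lists and the median other gene between 80.4 and 83.1. Acetylation was on the start side of the gene. Of 34 listed genes with spans over 8 kb, 31 had a peak at the start side in each of the 6 libraries, and 3 had one at the far side in each KO library, against 2 in each WT library.

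The promoters behind these peaks are shown for 5 genes. Atp5g2, a membrane-ring subunit of ATP synthase, and Uqcrc1, a core subunit of complex III, are a pair with an NRF1 motif that were lower in KO. Cox6b1 and Cox6b2 are a widely expressed and a testis isoform of the same complex IV subunit. Uqcrfs1 is the Rieske iron-sulfur protein of complex III and the one gene with a fold change above 0 at its widest end region. Each is RefSeq sequence on GRCm38.p6, written 5′ to 3′ in the direction of transcription, from 250 bases before the listed start to 50 after it. Capitals mark matches on either strand to the motifs GCATGCG (NRF1), CCGGAAG (ETS), ATGGCGG (YY1) and GGGCGG (SP1). The windows are chr15:102670998-102671297 on the minus strand for Atp5g2, chr9:108936398-108936697 on the plus strand for Uqcrc1, chr7:30626065-30626364 on the minus strand for Cox6b1, chr7:4753045-4753344 on the minus strand for Cox6b2 and chr13:30545267-30545566 on the minus strand for Uqcrfs1.
Atp5g2: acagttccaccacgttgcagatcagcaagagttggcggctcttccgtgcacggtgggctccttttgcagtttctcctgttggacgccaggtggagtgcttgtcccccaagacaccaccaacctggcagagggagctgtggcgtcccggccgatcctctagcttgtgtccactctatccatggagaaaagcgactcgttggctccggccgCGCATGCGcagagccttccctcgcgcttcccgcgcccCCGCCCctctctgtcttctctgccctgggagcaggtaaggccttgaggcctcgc
Uqcrc1: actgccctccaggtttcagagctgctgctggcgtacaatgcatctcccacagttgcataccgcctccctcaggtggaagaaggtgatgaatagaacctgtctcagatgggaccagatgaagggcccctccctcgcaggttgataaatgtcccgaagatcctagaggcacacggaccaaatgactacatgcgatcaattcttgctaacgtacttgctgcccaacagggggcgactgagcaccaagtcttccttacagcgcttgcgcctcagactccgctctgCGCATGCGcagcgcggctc
Cox6b1: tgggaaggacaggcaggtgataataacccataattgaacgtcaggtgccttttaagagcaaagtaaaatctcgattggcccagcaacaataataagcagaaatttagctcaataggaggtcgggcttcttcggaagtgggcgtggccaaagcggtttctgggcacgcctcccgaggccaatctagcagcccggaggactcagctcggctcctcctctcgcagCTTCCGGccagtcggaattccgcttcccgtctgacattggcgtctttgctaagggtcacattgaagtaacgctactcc
Cox6b2: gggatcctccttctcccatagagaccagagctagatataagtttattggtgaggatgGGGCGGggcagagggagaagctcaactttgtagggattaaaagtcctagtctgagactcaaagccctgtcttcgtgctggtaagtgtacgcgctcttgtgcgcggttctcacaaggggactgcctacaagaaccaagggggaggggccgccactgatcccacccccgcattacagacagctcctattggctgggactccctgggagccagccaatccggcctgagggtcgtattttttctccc
Uqcrfs1: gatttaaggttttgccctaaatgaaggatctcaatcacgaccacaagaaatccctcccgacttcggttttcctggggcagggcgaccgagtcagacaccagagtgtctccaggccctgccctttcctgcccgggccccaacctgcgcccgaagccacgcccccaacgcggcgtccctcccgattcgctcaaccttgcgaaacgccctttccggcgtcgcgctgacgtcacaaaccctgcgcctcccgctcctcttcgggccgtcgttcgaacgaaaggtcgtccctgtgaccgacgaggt

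The NRF1 motif GCATGCG stands at 1 place in the Atp5g2 and Uqcrc1 windows, where its matches on both strands overlap, and in none of the other 3. Over the 82 windows it was found in 12 (14.6%), against 4.44% of 17410 other protein-coding genes. Among genes with a start peak in all 6 libraries it was in 15.6% of 77 respiratory chain windows, against 7.7% of 6893 others. The 12 genes are Atp5g2, Atp5k, Atp5l, Cox6a1, Ndufa6, Ndufa8, Ndufa11, Ndufaf4, Ndufaf5, Sdhb, Uqcr11 and Uqcrc1, which span all 5 complexes. The YY1 motif ATGGCGG was found in another 12 windows (14.6%), against 5.37% of all others, and with a start peak in 14.3%, against 10.4%. These are Atp5b, Ndufa1, Ndufa5, Ndufa7, Ndufa9, Ndufaf7, Ndufaf8, Ndufb5, Ndufs4, Ndufs6, Ndufs7 and Sdhaf2. Of these, 10 belong to complex I, as do 42 of the 82 windows. The ETS motif CCGGAAG was in 25.6% of respiratory chain windows, against 11.8% of all others, and with a start peak in 27.3%, against 23.0%. Of the 5 windows shown, Cox6b1 has it once. The SP1 motif GGGCGG was in 47.6%, against 46.3% of all others, and with a start peak in 46.8%, against 68.9%. CCAAT was in 42.7% of respiratory chain windows, against 39.0% of all others, and with a start peak in 42.9%, against 39.3%. TATAAA was in 11.0%, against 13.4% of all others, and with a start peak in 9.09%, against 6.17%. The 82 windows, with or without a start peak, had a median of 20 CpG sites and 58.7% G or C, against 13 sites and 56.3% in all others. Other genes with a start peak in all 6 libraries had 22 sites and 61.7%. The Uqcrfs1 window holds none of the capitalised motifs. Neither do those of Ndufv1, Ndufa4 and Atp5o, which were lower in KO at an FDR under 0.05. Of the 12 genes with the NRF1 motif, Cox6a1, Ndufa6, Ndufa8, Sdhb and Uqcr11 were not called at their widest end regions. The others of the 12 were lower there in the authors' deposited table. A link between motifs and the change in KO was not tested. The motif counts are matches of letters on either strand and not measured binding.

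Between the genotypes, acetylation at respiratory chain genes was lower in KO, as it was at most gene ends in these libraries. In the authors' deposited table, 84 of the 119 regions were lower in KO at an FDR under 0.05 (70.6%), 1 was higher (0.84%) and 34 were not called. Over all 13154 regions within 2 kb of a protein-coding gene end, 55.3% were lower and 6.17% higher. The median log2 fold change, KO over WT, was -0.83 at respiratory chain regions and -0.73 at all gene-end regions of the authors' deposited table. At equal coverage these would be -0.53 and -0.43. With each gene read at its widest region, 62 of 89 genes with a region were lower (69.7%), none was higher and 27 were not called, where 60.2% of 11627 protein-coding genes were lower and 5.09% higher. The gene median was -0.82, against -0.77 over all protein-coding genes of the authors' deposited table. The share of lower calls was thus above that of all genes, while the medians differed little against a range of -1.76 to 0.63 within the set.

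The single-gene values ran between -1.76 and 0.63 in the authors' deposited table, and 88 of 89 were below 0. At equal coverage 87 of 89 would be, with Cox7a1 at 0.1 and Uqcrfs1 at 0.93 above 0. All 23 genes at or below -1 were called lower. Of the 119 regions, 66 also lie within 2 kb of an end of a gene outside this set, and their acetylation cannot be assigned to either gene. Reading each gene at the region nearest to its listed start, at most 500 bp from it, gave 56 of 78 genes lower (71.8%) and none higher in the authors' deposited table, where 59.5% of 8834 protein-coding genes were lower and 4.18% higher. This reading was chosen after the data were seen. The widest region does not speak for every region of a gene: 5 genes not called there had another end region called lower in the authors' deposited table (Ndufb6, Ndufb7, Uqcr11, Uqcrq and Cox8a). With each gene read at its region of lowest FDR, 66 of 89 genes were lower and 1 was higher. This reading favours called regions everywhere: of 11627 protein-coding genes, 7478 were lower and 744 higher.

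**Figure D1:**
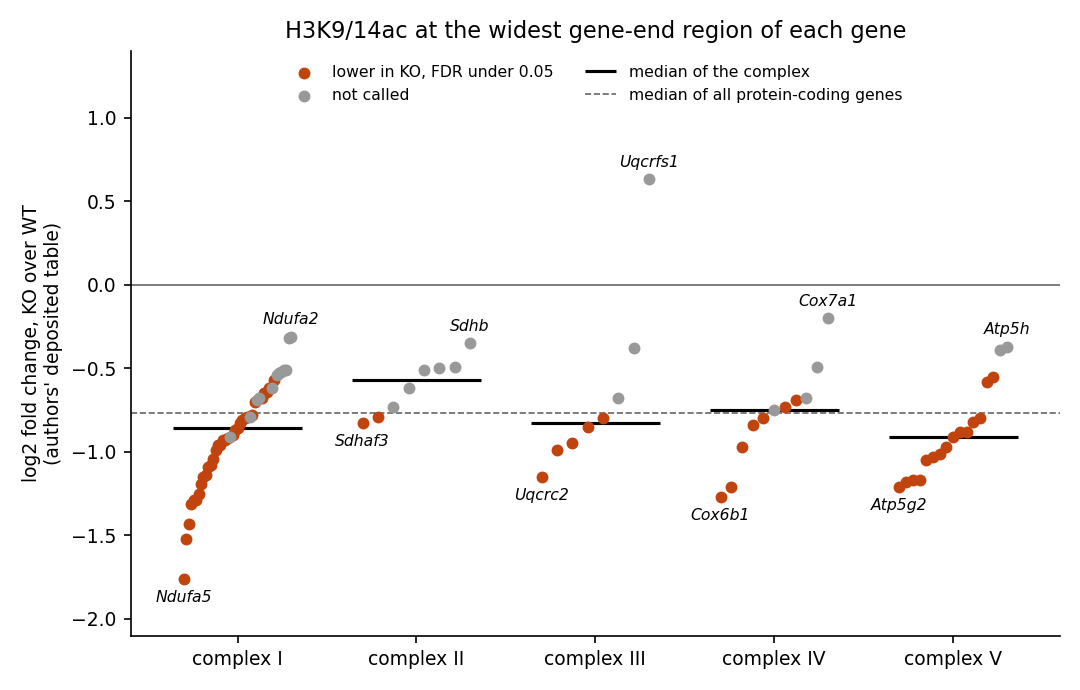
Log2 fold change, KO over WT, at the widest gene-end region of each of 89 respiratory chain genes, from the authors' deposited table, ordered within each complex. Orange points are lower in KO at an FDR under 0.05 and grey points were not called; black bars are the medians of the complexes (-0.86, -0.57, -0.83, -0.75 and -0.91 for complexes I to V), and the dashed line is the median over all protein-coding genes (-0.77).

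The peak lists gave a value for each library. Peaks within 2 kb of the gene ends covered 157834, 164483 and 162112 bp in KO libraries, against 204638, 197006 and 197059 bp in WT libraries. All KO libraries were below all WT libraries, at 0.809 times the WT mean (two-sided exact permutation test, p = 0.1, adjusted p = 0.129 over 18 such tests). Over all protein-coding gene ends the ratio was 0.84. A peak lay at the ends of 88 of the 100 genes in each KO library, against 90, 89 and 89 in the WT libraries. Of all bp under peaks at protein-coding gene ends, respiratory chain genes held 0.903%, 0.907% and 0.931% in KO libraries, against 0.957%, 0.949% and 0.939% in WT libraries (exact permutation p = 0.1). Within 1 kb of the gene ends the order of these shares turned round, to 1.02% in KO and 1.018% in WT libraries on average (exact permutation p = 1). Gene by gene, 44 of the 90 genes with a peak in any library (48.9%) had less peak length in every KO library than in every WT library, and none had more. Over the 12428 protein-coding genes with a peak, 38.3% were lower and 3.05% higher in this sense.

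**Figure D2:**
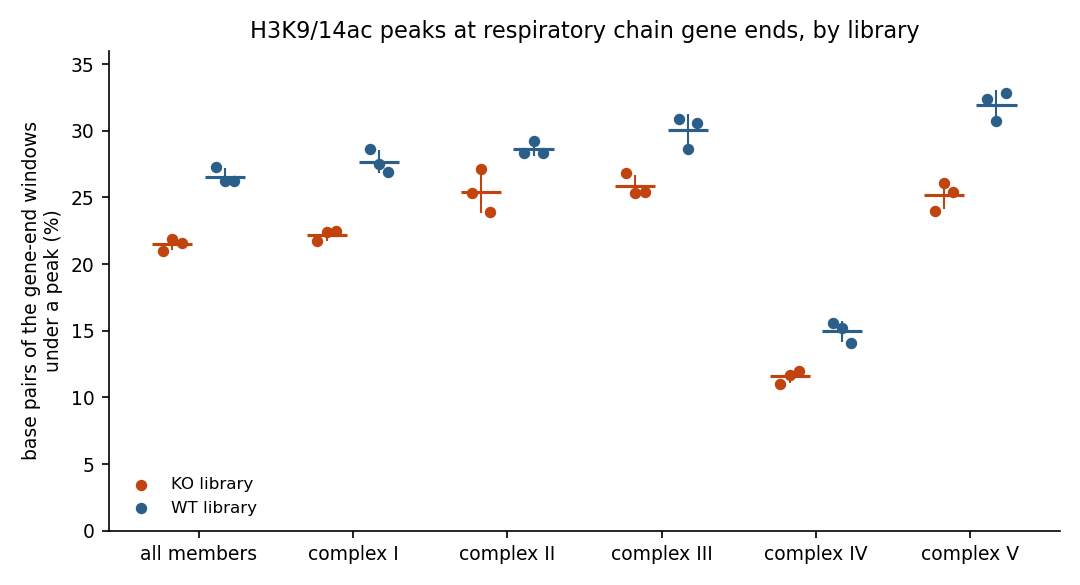
Share of base pairs within 2 kb of a gene end that lay under a peak, in percent, for all respiratory chain genes and by complex. Points are libraries (3 KO, left, and 3 WT, right), bars are means and vertical lines the SD; over all members the KO libraries lie between 21.0% and 21.9% and the WT libraries between 26.2% and 27.3%.

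Complex I, the NADH dehydrogenase, has the most genes in the set, and most of those with a region were lower in KO. Of its 45 genes with a region in the authors' deposited table, 33 were lower in KO (73.3%) and none higher, against 60.2% lower and 5.09% higher among all protein-coding genes. The median log2 fold change was -0.86, against -0.77. Without the assembly factors, 25 of 37 complex I genes were lower (67.6%), with a median of -0.81 in the authors' deposited table. Its gene ends held 80830, 83642 and 83823 bp under peaks in KO libraries, against 106587, 102615 and 100486 bp in WT libraries, a ratio of 0.802 (exact permutation p = 0.1) beside 0.84 over all gene ends. The lowest value belonged to Ndufa5, a subunit of the peripheral arm, at -1.76 (FDR 1.21e-11) in the authors' deposited table. Its peaks covered 1666, 1504 and 1487 bp in KO libraries, against 2311, 2456 and 2152 bp in WT libraries, with no overlap between the genotypes. Ndufa3 followed at -1.52 (FDR 0.0032) and Ndufa9 at -1.43 (FDR 2.46e-05) in the authors' deposited table, both accessory subunits. Ndufa3 peaks covered 918, 1025 and 1468 bp in KO libraries, against 1826, 1670 and 1468 bp in WT libraries, so that KO replicate 3 equalled the lowest WT library. The region of Ndufa5 is shared with an end of Asb15 and that of Ndufa3 with Oscar and Tfpt, whereas the Ndufa9 region is at no other gene's end.

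The core subunits of complex I, those with counterparts in the bacterial enzyme that carry the flavin and the iron-sulfur clusters, were mostly lower too. Ndufs1, the largest subunit of the electron-input module, was at -1.25 (FDR 4.64e-08) in the authors' deposited table. Its peaks covered 2840, 2804 and 2655 bp in KO libraries, against 3602, 3551 and 3551 bp in WT libraries; the region is shared with Eef1b2. Ndufs8 was at -1.19 (FDR 2.9e-06), Ndufv1, which binds NADH and flavin, at -1.09 (FDR 0.000632), Ndufv2 at -0.99 (FDR 0.0014) and Ndufs7 at -0.7 (FDR 0.0234) in the authors' deposited table. This Ndufv2 region lies at the far end of the gene and is shared with Ankrd12. The region at its own start was at -0.89 (FDR 0.000999) in the authors' deposited table. The Ndufs8 region is shared with Aldh3b1. Other Ndufs8 end regions, at -0.65 (FDR 0.106) and 0.59 (FDR 0.112), were not called in the authors' deposited table. Ndufs8 peaks overlapped, at 2465, 2162 and 3198 bp in KO libraries, against 2279, 2600 and 3012 bp in WT libraries. Ndufs3 was at -0.53 and not called (FDR 0.051), although its peaks were shorter in every KO library (1821, 1687 and 1601 bp) than in any WT library (1907, 1904 and 2041 bp). At the other end of the range, Ndufa2 at -0.31 (FDR 0.825) and Ndufs5 at -0.32 (FDR 0.49) were not called in the authors' deposited table. Ndufa2 peaks filled 3064, 3064 and 3064 bp in KO libraries, against 3064, 3059 and 2772 bp in WT libraries. Assembly factors are needed to build the complexes but are not part of them. Over complexes I and II, 10 of 12 were lower (83.3%) and none higher at their widest regions. Among all protein-coding genes, 60.2% were lower and 5.09% higher. The median of the assembly factors was -0.83, against -0.77 over all genes, in the authors' deposited table. Read at the region of lowest FDR, 9 were lower and 1, Sdhaf2, was higher.

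Complex II, succinate dehydrogenase, was the complex with the fewest lower calls. It is also the only complex here that works in the tricarboxylic acid cycle as well, and all its subunits are nuclear. Of its 8 genes in the authors' deposited table, 2 were lower (25.0%, against 60.2% of all genes), both of them assembly factors: Sdhaf3 at -0.83 (FDR 0.000124) and Sdhaf2 at -0.79 (FDR 0.00206). None of the 4 enzyme subunits was called. Sdhc was at -0.73 (FDR 0.104), Sdha, the flavoprotein, at -0.51 (FDR 0.161), Sdhd at -0.49 (FDR 0.181) and Sdhb, the iron-sulfur protein, at -0.35 (FDR 0.729) in the authors' deposited table. Their peak lengths ranged between overlap and separation. Sdha peaks covered 1610, 2065 and 1342 bp in KO libraries, against 1838, 1879 and 1826 bp in WT libraries, with KO replicate 2 above all WT libraries. Sdhc and Sdhd had less in every KO library than in any WT library, at 1497, 1497 and 1109 bp against 1676, 1623 and 1740 bp for Sdhc, and 2031 bp in each KO library against 2183, 2154 and 2157 bp for Sdhd. The complex as a whole held 15401, 16536 and 14601 bp under peaks in KO libraries, against 17242, 17807 and 17239 bp in WT libraries, a ratio of 0.89 (exact permutation p = 0.1), which is above the 0.84 over all gene ends. Its share of all gene-end peak length was 0.0878% in KO and 0.0829% in WT libraries on average (exact permutation p = 0.2). A fold change that differs between complex II and the other complexes was not tested, since the deposited table holds no value per library.

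The one region called higher among all 119 lies past the far end of Sdhaf2, which encodes the factor that attaches flavin to Sdha. At chr19:10496251-10498650, all 16 windows of 150 bp went up in the authors' deposited table, with a log2 fold change of 1.53 (FDR 2.84e-08), and a peak was called there in 3 of 3 KO and 3 of 3 WT libraries. The region at the other end of Sdhaf2, where the start lies, had 5 of 17 windows down and none up, and it is shared with Cpsf7. The higher region lies wholly outside the Sdhaf2 span, which runs from 10500512 to 10525209, and reaches only the edge of the 2 kb window. Within 1 kb of a gene end it was no longer counted. Its acetylation is thus not shown to belong to Sdhaf2.

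In complex III, the cytochrome bc1 complex, 5 of 8 genes were lower in the authors' deposited table (62.5%), close to the 60.2% of all genes, with a median of -0.83. Uqcrc2, a core subunit, was at -1.15 (FDR 2.94e-05), Uqcr10 at -0.99 (FDR 9.78e-06) and Uqcrc1, the partner of Uqcrc2, at -0.95 (FDR 0.00233) in the authors' deposited table. Uqcrc2 peaks covered 2837, 2752 and 2069 bp in KO libraries, against 4001, 3553 and 3035 bp in WT libraries. Uqcrc1, whose promoter is printed above, had 508, 654 and 783 bp in KO libraries, against 992, 1070 and 850 bp in WT libraries. Both were shorter in every KO library. Uqcrq, for a small subunit of the complex, was at -0.38 and not called (FDR 0.592) at its widest region in the authors' deposited table, and its peaks had nearly the same length in all libraries, 1348, 1352 and 1348 bp in KO against 1348 bp in each WT library. A second, narrower region at its end, outside these peaks, was lower at -1.6 (FDR 4.94e-06), with 3 of 3 windows down, in the authors' deposited table; both are shared with Gdf9.

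Among widest end regions, that of Uqcrfs1 stood on the other side of 0 from the rest, without a call. This region had a log2 fold change of 0.63 (FDR 0.059), with 3 of 17 windows up and none down in the authors' deposited table, and it is at no other gene's end. Uqcrfs1 peaks covered 3667, 2998 and 3667 bp in KO libraries, against 3157, 3087 and 3566 bp in WT libraries, which overlap. The authors' fold enrichment of its strongest peak was 2.84, 3.44 and 5.01 in KO lists, at percentiles 7.08, 25.6 and 52.0 of each list. In WT lists it was 7.57, 8.37 and 5.74, at percentiles 78.9, 80.4 and 64.1. The fold change above 0 is that of the best window of the region, as in every row of the authors' deposited table.

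In complex IV, cytochrome c oxidase, 7 of 11 genes with a region were lower in the authors' deposited table (63.6%), with a median of -0.75, both close to the values of all genes (60.2% and -0.77), and 7 further genes had no region. Cox6b1 was at -1.27 (FDR 0.000197), Cox4i1 at -1.21 (FDR 0.00057) and Cox7b, which is X-linked, at -0.97 (FDR 0.00033) in the authors' deposited table. Cox6b1 peaks covered 1280, 1368 and 1280 bp in KO libraries, against 1748, 1502 and 1637 bp in WT libraries. Cox4i1 peaks covered 2106, 2106 and 2715 bp in KO libraries, against 2837, 2708 and 2749 bp in WT libraries, where KO replicate 3 exceeded WT replicate 2. The gene ends of the complex held 13732, 14609 and 14880 bp under peaks in KO libraries, against 19427, 18887 and 17590 bp in WT libraries. This ratio, 0.773 (exact permutation p = 0.1), was the lowest of the 5 complexes, and the complex had the smallest share of its gene-end windows under peaks in each of the 6 libraries.

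Several complex IV subunits exist as a widely expressed form and a form of heart and muscle, lung or testis. Of 7 such restricted isoforms, 4 had no end peak in any library: Cox6a2 and Cox8b, known from heart and muscle, and Cox7b2 and Cox8c, known from testis. Cox4i2, known from lung, had 1 peak of 282 bp in WT replicate 1 and none in the other 5 libraries. Its region was at -0.68 and not called (FDR 0.0712) in the authors' deposited table. Cox7a1, the heart and muscle form of Cox7a, was the exception, with 1253, 608 and 1364 bp under peaks in KO libraries, against 1246, 1498 and 918 bp in WT libraries. It was at -0.2 (FDR 0.986) in the authors' deposited table. Cox6b2, the testis form of Cox6b, was the only gene of the set with a peak in every library of one genotype and in none of the other. It had 0 bp in each KO library, against 940, 325 and 491 bp in WT libraries, and no tested region lay there. A peak that is missing from a list says only that none passed the caller's threshold at that library's depth.

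The 6 widely expressed partners of these isoforms were all acetylated. Besides Cox6b1, Cox4i1 and Cox7b, Cox6a1 was at -0.75 (FDR 0.165) and Cox8a at -0.49 (FDR 0.0532) in the authors' deposited table, both not called at their widest regions. A second Cox8a region was lower at -0.91 (FDR 0.00119), with 3 of 3 windows down, in the authors' deposited table. Cox8a peaks were shorter in every KO library, at 575, 1196 and 675 bp, against 1230, 1687 and 1814 bp in WT libraries. For Cox7a2 the gene span in the annotation extends past the listed start, so that its peak falls inside the span and outside the end windows. The region over that start was at -0.81 (FDR 0.00375), with 8 of 11 windows down, in the authors' deposited table. Cox5a showed the same geometry, and the region over its start was at -0.55 and not called (FDR 0.176) in the authors' deposited table.

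**Figure D3:**
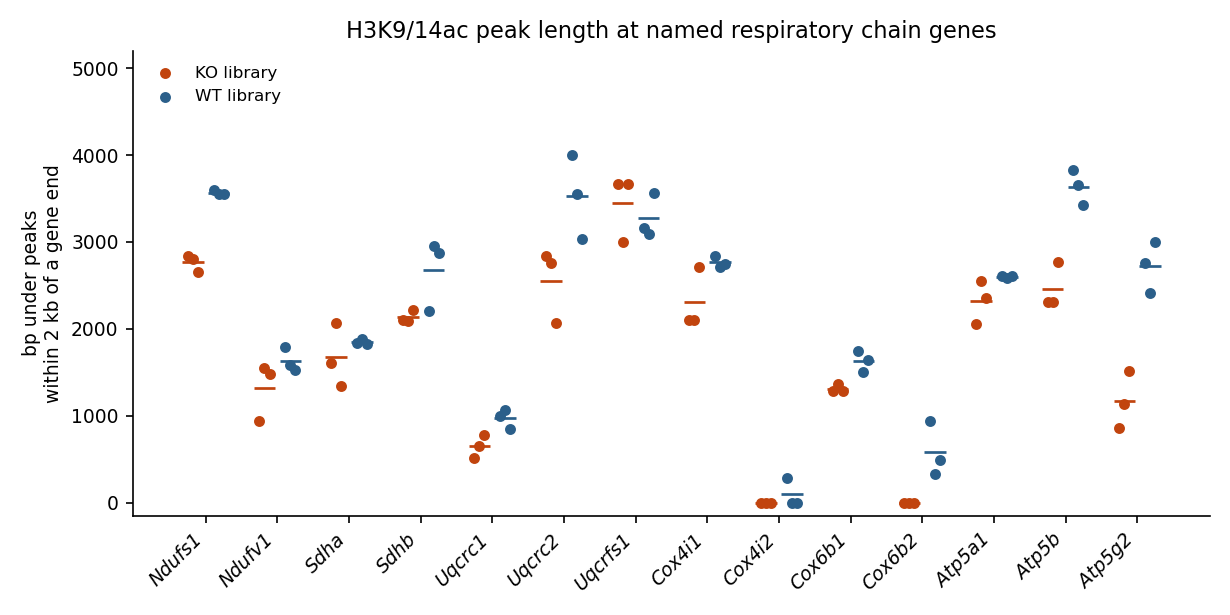
Base pairs under peaks within 2 kb of a gene end for 14 genes, by library (3 KO, left, and 3 WT, right), with bars at the means. Atp5g2 and Cox6b2 do not overlap between genotypes, Uqcrfs1 does, and Cox4i2 and Cox6b2 sit at 0 in every KO library.

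Complex V, ATP synthase, had the largest share of lower genes of the 5 complexes in the authors' deposited table, 15 of 17 (88.2%, against 60.2% of all genes), with a median of -0.91. Of its 27 regions, 24 were lower (88.9%), against 55.3% of all gene-end regions. Its gene ends held 31493, 34232 and 33309 bp under peaks in KO libraries, against 42484, 40207 and 43029 bp in WT libraries, a ratio of 0.788 (exact permutation p = 0.1). Among widest regions the lowest value was that of Atp5g2 at -1.21 (FDR 4.41e-06) in the authors' deposited table. Its peaks covered 857, 1135 and 1516 bp in KO libraries, against 2755, 2417 and 3002 bp in WT libraries. All 3 regions at its ends were lower, at -1.21, -1.32 and -1.06, with 9 of 10, 5 of 5 and 2 of 2 windows down in the authors' deposited table. Of the other genes for the same membrane-ring subunit, Atp5g3 was at -1.03 (FDR 7.58e-06) and Atp5g1 at -0.55 (FDR 0.0289) in the authors' deposited table. Atp5g3 peaks were shorter in every KO library, at 1669, 1669 and 1829 bp, against 2042, 1917 and 1878 bp in WT libraries. Atp5g1 peaks overlapped, at 1379, 1214 and 1145 bp in KO libraries, against 1517, 1149 and 2198 bp in WT libraries.

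The catalytic head of ATP synthase is built of alpha and beta subunits around a rotor. Atp5a1 (alpha) was at -0.82 (FDR 0.00138) and Atp5b (beta) at -0.91 (FDR 0.000126) in the authors' deposited table. Atp5b has 4 end regions, and the widest, at -0.91, is shared with Baz2a; the region at its own start was at -0.81 (FDR 0.000179) in the authors' deposited table. Atp5d (delta) was at -0.97 (FDR 7.96e-05) in a region shared with Midn, and at its own start at -0.77 (FDR 0.00387), in the authors' deposited table. The lowest of all complex V regions was another one at its ends, shared with Cbarp, at -1.66 (FDR 9.07e-11), with 17 of 19 windows down, in the authors' deposited table. Atp5e (epsilon) was at -1.17 (FDR 2.05e-06) in the authors' deposited table, with peaks of 616, 1980 and 1539 bp in KO libraries, against 1682, 1683 and 1597 bp in WT libraries, so KO replicate 2 was above all WT libraries. The small membrane subunits Atp5mpl, at -1.18 (FDR 0.00286), and Atp5l, at -1.17 (FDR 1.1e-05), were close to it in the authors' deposited table. Atp5c1 (gamma, the rotor shaft), at -0.39 (FDR 0.576), and Atp5h, a stalk subunit, at -0.37 (FDR 0.422), were the 2 genes not called in the authors' deposited table, each with 0 of 15 windows down. Atp5j shares its region with Gabpa, which encodes the DNA-binding subunit of GABP, and that region was at -1.01 (FDR 0.000654) in the authors' deposited table.

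There were 10 genes without an end peak in any library. Besides Cox5a, Cox7a2, Cox6a2, Cox8b, Cox7b2 and Cox8c, these included Ndufa4l2, Ndufb4b and Ndufb4c. Ndufb4b and Ndufb4c are close relatives of Ndufb4 by name, and reads shared between near-identical copies may be lost or split, so their zeros are uncertain. Ndufa4l2, a relative of Ndufa4 known as a hypoxia-responsive gene, had 1 region inside its annotated span, higher at 0.66 (FDR 0.00787) in the authors' deposited table. Its peaks covered 1964, 1784 and 1341 bp in KO libraries, against 1913, 1750 and 1915 bp in WT libraries, which overlap.

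At 150 bp after the start, nearly all respiratory chain genes had a peak in KO libraries too, but these peaks reached less far into the gene. The 1000 bp position and the measures of reach were chosen after the data were seen, so their tests are descriptive. At 1000 bp after the start a peak was still present at 37.8%, 41.5% and 41.5% of the 82 starts in KO libraries, against 69.5%, 62.2% and 64.6% in WT libraries. The means were 40.2% ± 2.11 in KO and 65.4% ± 3.73 in WT libraries (SD, n = 3 each; exact permutation p = 0.1). Over the 77 genes with a peak over the 150 bp position in all 6 libraries, that peak ended at a median of 933, 935 and 955 bp after the start in KO libraries, against 1210, 1116 and 1152 bp in WT libraries. Upstream it reached a median of 515, 569 and 540 bp in KO libraries, against 810, 650 and 667 bp in WT libraries. The groups did not overlap in any of these measures.

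Start peaks of other genes were shorter in KO libraries as well, and how the groups of genes compared depended on the measure. Upstream, the other genes' median reach was 564, 601 and 566 bp in KO libraries, against 783, 762 and 758 bp in WT libraries, a ratio of 0.752 beside 0.764 for respiratory chain genes. Downstream, it was 1118, 1149 and 1101 bp in KO libraries, against 1310, 1273 and 1284 bp in WT libraries, a ratio of 0.871 beside 0.812. The gap was wider in the share of starts covered at 1000 bp, but its size depends on where that position was placed. Averaged over libraries, the median downstream reach of respiratory chain genes was 941 bp in KO and 1160 bp in WT, on either side of 1000 bp. For the other genes it was 1120 bp in KO and 1290 bp in WT, both beyond 1000 bp. Among the 6893 other genes with a start peak in all 6 libraries, 59.8%, 61.9% and 58.5% were covered at 1000 bp in KO libraries, against 73.3%, 72.2% and 72.8% in WT libraries, a ratio of 0.826. The 77 respiratory chain genes held to the same condition gave 40.3%, 44.2% and 44.2% in KO libraries, against 72.7%, 66.2% and 67.5% in WT libraries, a ratio of 0.623. The share at respiratory chain genes was 0.714 ± 0.0406 times that of the other genes in KO libraries and 0.946 ± 0.0404 times in WT libraries (SD, n = 3 each; two-sided exact permutation test, p = 0.1, adjusted p = 0.129). All 3 KO libraries were below all WT libraries in this ratio. Respiratory chain genes are also shorter, with a median span of 7495 bp against 22743 bp for the other genes, and the part of span and of coverage in this difference was not tested. By complex, the means at 1000 bp were 35.7% in KO and 63.5% in WT libraries for the 42 starts of complex I. They were 52.4% in KO and 76.2% in WT libraries for 7 starts of complex II, and the KO mean was 0.333 times the WT mean for the 5 starts of complex III. For complex IV they were 41.0% in KO and 59.0% in WT libraries over 13 starts, and for complex V 53.3% in KO and 73.3% in WT libraries over 15 starts. KO was below WT in each complex; the order of the complexes rests on few starts and was not tested.

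**Figure D4:**
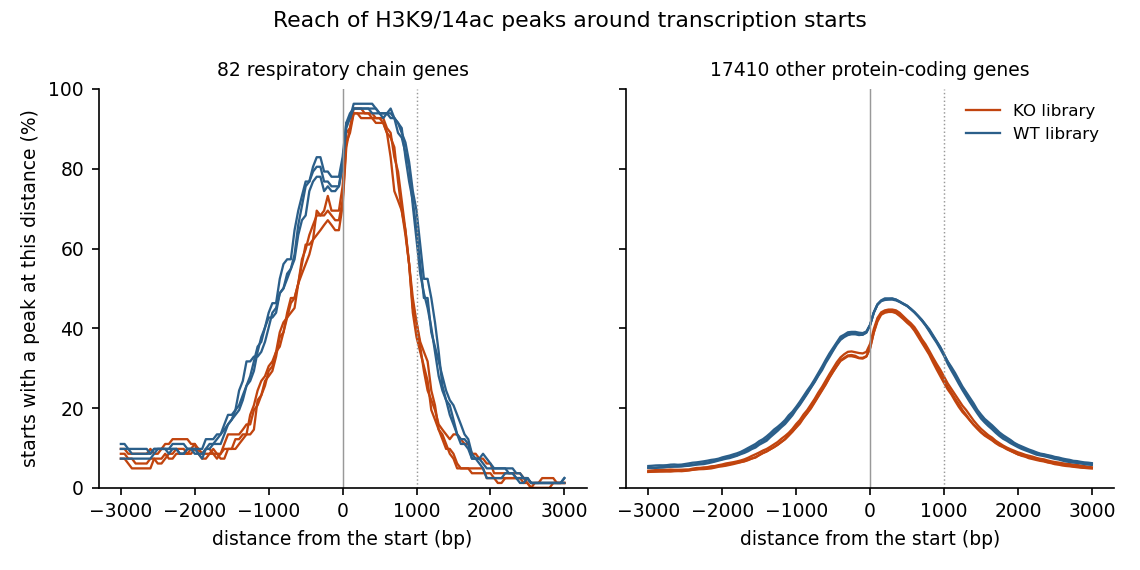
Share of transcription starts with a peak at each distance from the start, in percent, for the 82 respiratory chain genes with a listed start (left) and 17410 other protein-coding genes (right). Each line is a library, KO in orange and WT in blue, and positive distances lie inside the gene; at respiratory chain starts the lines meet at 150 bp and part at the dotted line at 1000 bp, at 37.8% to 41.5% in KO and 62.2% to 69.5% in WT libraries.

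Genes that work with the respiratory chain were mostly lower too in the authors' deposited table, where 60.2% of all protein-coding genes were lower and 5.09% higher. Of 30 further assembly factors and electron carriers, 22 were lower (73.3%), 2 higher and 6 not called, with a median log2 fold change of -0.87. Acad9, needed to build complex I, was at -1.96 (FDR 4.15e-07), Tmem70, needed for complexes I and V, at -1.24 (FDR 1.45e-08), and Atpif1, the inhibitor of ATP hydrolysis by complex V, at -1.49 (FDR 2.59e-08) in the authors' deposited table. The pair that was higher, named after their values were seen, was Sco1 at 1.2 (FDR 6.31e-07) and Cox17 at 0.76 (FDR 0.00731) in the authors' deposited table, both of which deliver copper to complex IV. Sco1 peaks filled 4001 bp in each KO library, against 3650, 4001 and 3389 bp in WT libraries. Cytochrome c itself (Cycs) was at -0.6 and not called (FDR 0.16) in the authors' deposited table.

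Of 15 regulators of respiratory genes with a region, 10 were lower (66.7%, against 60.2% of all genes) and none higher in the authors' deposited table, with a median of -0.71. The coactivator genes Ppargc1b, at -0.98 (FDR 7.14e-05), and Pprc1, at -0.82 (FDR 0.000104), were lower, as was Tfb1m, for a mitochondrial methyltransferase, at -0.94 (FDR 0.000179), in the authors' deposited table. Nrf1, Yy1 and Sp1, whose motifs are counted above, were at -0.76 (FDR 0.158), -0.52 (FDR 0.453) and -0.55 (FDR 0.318) in the authors' deposited table, none of them called. In the tricarboxylic acid cycle, which feeds the chain with NADH and succinate, 11 of 13 genes were lower (84.6%) and none higher, with a median of -0.95 in the authors' deposited table. Idh3b, at -1.24 (FDR 1.67e-07), Dld, at -1.19 (FDR 1.6e-05), and Ogdh, at -1.18 (FDR 2.54e-05), all for parts of NADH-producing dehydrogenases, had the lowest FDRs in the authors' deposited table. In glycolysis, 13 of 16 genes were lower (81.2%) and none higher at their widest regions, with a median of -1.15 in the authors' deposited table. Of all 26 glycolysis regions, 18 were lower and 3 higher. The lactate dehydrogenase genes Ldha, at -1.77 (FDR 4.25e-17), and Ldhb, at -2.08 (FDR 6.13e-15), and the phosphofructokinase gene Pfkp, at -1.4 (FDR 8.5e-10), led that list in the authors' deposited table. Little peak length lay within the Ldha end windows, 0 bp in each KO library against 168, 168 and 96 bp in WT libraries. For Ldhb it was 785, 0 and 0 bp in KO libraries, against 826, 938 and 1437 bp in WT libraries. Genes of cytosolic ribosomal proteins, like those of the respiratory chain, are active in nearly all cells. They were taken by symbol, as Rpl or Rps plus a digit, a rule that can also take in genes of other function. Of 86 genes with such a symbol and a region, 80 were lower (93.0%) and 2 higher, with a median of -1.1 in the authors' deposited table. The respiratory chain median of -0.82 thus lay between the median of all protein-coding genes and the medians of glycolysis genes and of genes with Rpl or Rps symbols. This is a comparison of descriptions without a test.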

How the data were processed

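H3K9/14ac was measured by RELACS ChIP-seq in 3 KO and 3 WT libraries, with 5 µg of antibody per the labels. Per the submitters' processing notes, the tools included MACS2 2.2.6, Bowtie2 2.3.5.1 and cutadapt 2.8, and the builds were GRCm38 and mm10. Not given in the sources used here are the program and scaling of the differential table and the use of input as control. Peaks were called per library, not on pooled samples. Each peak comes with the authors' score, a linear fold enrichment (a ratio) and the -log10 of its p-value and q-value; these deposited values only describe peaks within a list. The paired-end lists were used. The authors' deposited table holds 40909 regions of 150 bp windows, each with its number of windows, how many went up or down, a p-value with its FDR, and the best window's log2 fold change. Without values per library it was neither refitted nor recomputed with a library left out; calls are at the authors' FDR under 0.05.

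Peaks settled its direction: 99.5% of 1063 regions that had peaks in all KO but no WT libraries were positive, and 99.9% of 2730 opposite ones negative. Spans of 24128 regions were taken from the deposited list of significant regions and 16571 were rebuilt from windows under single-read peaks, a rule that returned 98.8% of listed spans exactly; 209 were placed by their best window and 1 was not located. Mean coverage was solved from each peak's fold and p-value, which returned 80.1% to 99.4% of heights within 0.01 of the deposited -log10 p, and the method was tested on simulated data. Over 1998 regions with a summit by the best window in all libraries, the authors' log2 fold changes followed height ratios (correlation across regions, which are not replicates, 0.981) with an offset of 0.48, while the log2 ratio of coverage was -0.78.

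A gene was read at its widest region within 2 kb of an end of its span. The annotation used has no strand, and starts come from the RefSeq promoter table on GRCm38.p6. Measures per library were set against each other by exact permutation of the genotypes (difference in means, two-sided), where 0.1 is the smallest possible p, with Benjamini-Hochberg adjustment over 18 tests. A peak's absence depends on depth, and no counts per region are in these files, so no interval is given. The genes named are, per complex, the 3 lowest and 2 highest, the core subunits, the isoforms and their partners, genes with a peak in all libraries of one genotype and none of the other, and up to 3 genes of lowest FDR per other list except ribosomal proteins. Results for some genes under this rule are not reported here. Members and lists were chosen with earlier results of these data known. Python 3.11.15, numpy 2.4.6, pandas 2.3.3, scipy 1.17.1 and matplotlib 3.10.9 were used.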

Additional observations from a re-analysis of the deposited data

How the results depend on the processing

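Of 105 alternatives computed, 93 kept the direction and the side of the threshold, or a count within 1.5 times. Of the rest, 11 moved and 1 reversed, and the cause was not tested except where the alternative itself leaves out regions or genes. The exact tests allow no p under 0.1, so measures per library could not cross the threshold of 0.05. For these measures only the direction could change, and with a replicate block not even that, since the mean difference is the same. The share of gene-end peak length at respiratory chain genes reversed within 1 kb of a gene end, with KO minus WT at 0.00195 percentage points, against -0.0345 within 2 kb. At equal coverage the median log2 fold change of the regions was -0.53, against -0.83. A further limit of 1 on the size of the log2 fold change left 34 of 84 lower regions and 23 of 62 lower genes, and leaving out regions at other genes' ends left 36 lower of 53. The 1 region called higher became 0 within 1 kb, 0 without assembly factors and 4 anywhere in the gene span (chosen after the data were seen). Reading genes at their region of lowest FDR made 1 gene higher instead of 0. Leaving out 1 library at a time, the genes with more peak length in every KO than in every WT library numbered 0 to 2: 1 without KO replicate 1, 1 without KO replicate 2 and 2 without WT replicate 1. The differences KO minus WT then ran from -39600 to -35600 bp for peak length, -1.5 to -1.0 for genes with a peak, -0.0432 to -0.0291 for the share and -26.8 to -23.2 percentage points for starts covered at 1000 bp (chosen after the data were seen). With the equal number of strongest peaks per library, the peak length differed by -38200 bp. Replicate numbers did not pair the libraries (correlations of deviations across genes from -0.01 to 0.02); with a replicate block, the exact sign-flip test gave p = 0.25, the smallest that 3 pairs allow, for the same mean differences. Coverage was lower in KO than in WT libraries, and a weak peak can fall below the caller's threshold at lower coverage.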
